A study of Homo sapiens with 2 samples.

Results

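Small RNAs made by RNA polymerase III have scattered many copies over the human genome, and 45 such copies were among the 14914 features measured in HUH7, a widely used human liver cancer (hepatocellular carcinoma) cell line. They were taken by symbol: 13 are named as pseudogenes of 7SL RNA (RN7SL with a number and P), 11 of 7SK RNA (RN7SKP) and 21 of 5S ribosomal RNA (RNA5SP). Pseudogenes of Y RNAs (RNY with P) gave 0 members and are not analysed here. The study used RNA immunoprecipitation and sequencing (RIP-seq) to ask which RNAs associate with CSTF2, a protein of the cleavage stimulation factor that contacts RNA directly and acts in 3' end formation of mRNAs. The labels give 1 library titled IP, of RNA from the CSTF2 precipitation, and 1 library titled Input, both from HUH7 cells, and state no genotype, treatment or time. Neither group has a second library and no mock precipitation enters the comparison, so every value describes these libraries and has no replicate check. The cell label was checked against 9 hepatocyte genes, all of which were measured. FGB, for a fibrinogen chain, had 353 RPKM in the IP library and 311 RPKM in the Input library. ALB, for albumin, had 200.3 RPKM in the IP library and 254 RPKM in the Input library. FGB and ALB were the highest of the 9 in both libraries. The lowest was TTR, with 1.429 RPKM in the IP library and 4.255 RPKM in the Input library. RPKM is reads scaled to gene length and library depth, as deposited by the authors.

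7SL RNA is the scaffold of the signal recognition particle, which brings ribosomes making secretory proteins to the endoplasmic reticulum. 7SK RNA holds the elongation factor P-TEFb in an inactive complex, and 5S rRNA is part of the large ribosomal subunit. The 5S gene is switched on through a promoter inside the transcribed sequence, 7SK through elements upstream of it, and 7SL through both. Most of the copies are thought to have arisen when such an RNA was reverse transcribed and inserted elsewhere by the machinery of LINE-1 elements. Many of the copies measured here stop before the end of the parent RNA. A copy that stays near-identical to its parent can receive reads of the parent when reads are aligned, and how the authors' counting placed reads that match several loci is not given in the sources used here. The values below are therefore reads assigned to these loci, and no value here separates transcription of the copy from reads of its parent.

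The copies with most reads were truncated and otherwise close to their parents. In the 5S family, RNA5SP389 (chr14:106636672-106636786, plus strand, GRCh38) had the most reads and RNA5SP250 (chr7:152592973-152593091, minus strand) the lowest log2 ratio. In the 7SL family these were RN7SL4P (chr3:15738515-15738809, plus strand) and RN7SL674P (chr2:11584773-11585047, plus strand). These places hold with a pseudocount of 1 RPKM. With 0.1 RPKM RN7SL5P was lowest of the 7SL family at -8.36, against -5.71 for RN7SL674P, and with 5 RPKM RNA5SP216 was lowest of the 5S family. RN7SL4P aligned to bases 1 to 235 of the 300 bases of RN7SL2 with 4 mismatches, and RN7SL674P to bases 1 to 200 of the 299 bases of RN7SL1 with 5. RNA5SP250 aligned to bases 2 to 117 of the 5S gene RNA5S1 with 10 mismatches, and its longest run of identical bases was 17.

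In the 7SK family, RN7SKP79 (chr5:6848127-6848462, minus strand, GRCh38) had the most reads and RN7SKP203 (chr2:76445079-76445410, minus strand) the next lowest log2 ratio after it. They are shown as examples of a copy with scattered mismatches and of one closer to its parent. The first 300 bases of each are taken from GENCODE v29 transcripts and written as DNA from 5' to 3'. Capitals mark bases that line up with an identical base of RN7SK in a local alignment.
RN7SKP79: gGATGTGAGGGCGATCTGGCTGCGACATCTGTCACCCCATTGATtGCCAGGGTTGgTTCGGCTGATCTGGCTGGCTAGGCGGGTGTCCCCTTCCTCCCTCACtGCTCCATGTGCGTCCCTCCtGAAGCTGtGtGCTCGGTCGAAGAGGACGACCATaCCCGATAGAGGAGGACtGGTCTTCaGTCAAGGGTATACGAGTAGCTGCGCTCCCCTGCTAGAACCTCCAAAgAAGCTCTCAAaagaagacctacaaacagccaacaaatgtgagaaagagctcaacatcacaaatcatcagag
RN7SKP203: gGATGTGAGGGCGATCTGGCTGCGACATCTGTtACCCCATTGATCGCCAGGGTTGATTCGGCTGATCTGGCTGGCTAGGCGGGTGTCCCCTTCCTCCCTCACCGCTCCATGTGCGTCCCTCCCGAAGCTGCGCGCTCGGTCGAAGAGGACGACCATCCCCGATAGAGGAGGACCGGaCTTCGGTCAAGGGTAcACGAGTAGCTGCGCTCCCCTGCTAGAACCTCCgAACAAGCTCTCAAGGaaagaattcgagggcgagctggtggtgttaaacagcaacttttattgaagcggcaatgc
Both kept the start of 7SK RNA. RN7SKP79 matched it to base 238 with 10 mismatches and RN7SKP203 to base 240 with 4.

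Reads assigned to these pseudogenes were scarce in both libraries and scarcer in the IP library. Whole read numbers were recovered from the deposited values, at depths of 3220045 reads in the IP library and 9517885 in the Input library. Summed over the 45 members, 144 reads were assigned in the IP library and 5381 in the Input library. These are 0.00447% of the IP reads (95% Wilson interval 0.00380% to 0.00526%) and 0.0565% of the Input reads (0.0551% to 0.0581%). The share was 12.6-fold lower in the IP library, with an exact conditional (Clopper-Pearson) 95% interval of 10.7 to 15.0. This sum includes members measured through 1 library alone, which fixed their direction as set out below, so it gives no check of direction. These intervals cover counting error only, and they treat reads as independent, which PCR reads without molecular identifiers are not. Of the 45 members, 19 had no read in the IP library and 3 had none in the Input library. A count of 0 allows up to 3 reads, which for a 119-base copy such as RNA5SP250 is 7.83 RPKM in the IP library and 2.65 RPKM in the Input library. For a feature with 0 reads in the IP library, "at least" a fold lower below gives the limit of the exact 95% interval nearest no change. Fewer than 20 reads in all stood behind 20 members.

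The log2 ratio of IP + 1 over Input + 1 RPKM was taken wherever the mean of both libraries reached 1 RPKM, a filter that 43 members passed. In the IP library 3 of these lay at least 2-fold above Input, against 9.88% of all features tested. At least 2-fold lower were 36 members, against 6.83% of all features, and 4 lay within 2-fold. The median log2 ratio of the 43 was -3.05, and -1.44 with each 0 set to 3 reads, against 0.17 for all features. These counts, and the sum over the 45 members, give no support to a direction, because of how features came to be measured. Every feature with recovered reads reached 1 CPM (a count scaled to library depth) in at least 1 library, which takes 4 reads in the IP library or 10 in the Input library. A copy that reached it only in the Input library could not have a ratio above 0.887, and one that reached it only in the IP library could not have a ratio below 1.31. Through the Input library alone came 31 members (68.9%, against 6.02% of all features), and through the IP library alone 7 (15.6%, against 13.3%). The other 7 reached 1 CPM in both libraries (15.6%, against 80.7%), and the direction was free for these alone.

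**Figure D1:**
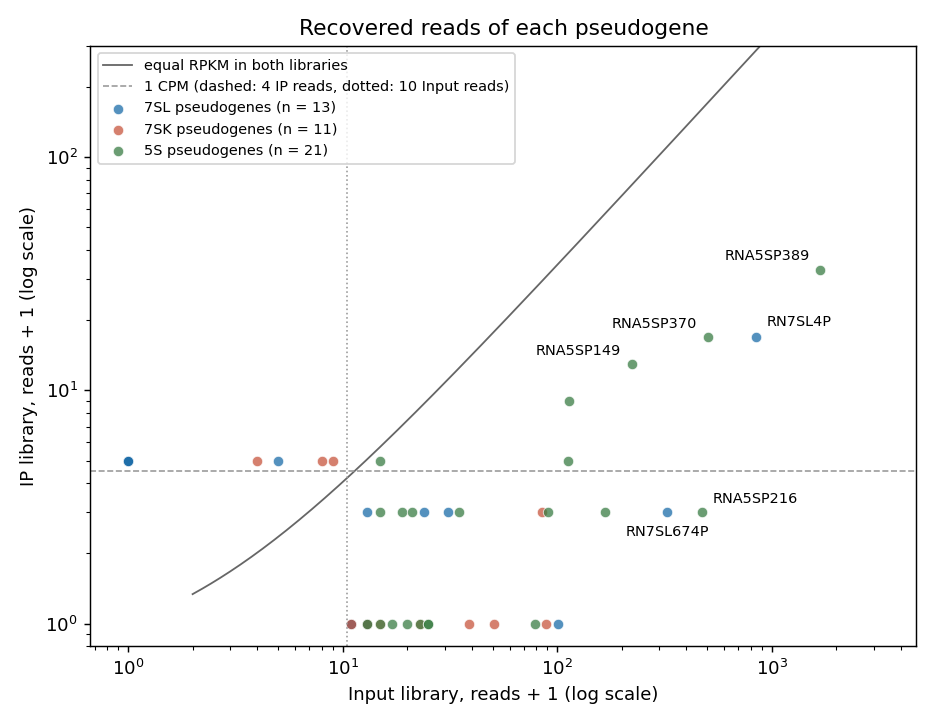
Recovered reads plus 1 of each pseudogene in the IP library (vertical axis) and the Input library (horizontal axis), both on log scales, with 1 point per member coloured by family and darker points where members coincide. The line marks equal RPKM, and the dashed and dotted lines mark 1 CPM; 7 points lie past both, and 6 of these are far below the line.

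The 7 members past 1 CPM in both libraries were RN7SL4P and 6 copies of 5S rRNA. Together they had 92 reads in the IP library and 3494 in the Input library, a share 12.9-fold lower in the IP library (10.5 to 16.0). Of the 7, 6 were at least 2-fold lower, against 5.31% of the 9091 features tested that reach 1 CPM in both libraries. None of the 7 was at least 2-fold higher, against 6.53% of those features. Their median log2 ratio was -3.13, against 0.15 for those features. The member within 2-fold was RNA5SP506, a full-length copy on chromosome X that GENCODE v29 types as rRNA and not as rRNA pseudogene. It had 4 reads in the IP library and 14 in the Input library. Its ratio was 0.845 (0.202 to 2.69), an interval that includes 1.

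**Figure D2:**
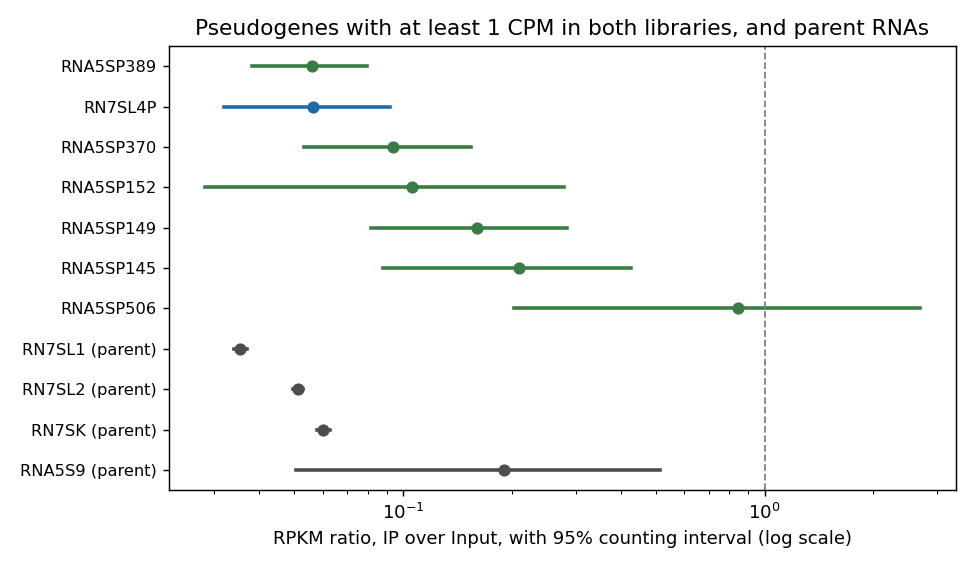
RPKM ratio of IP over Input on a log scale, with the exact 95% counting interval, for the 7 pseudogenes that reach 1 CPM in both libraries (blue, 7SL; green, 5S) and for 4 parent RNAs (grey). The dashed line marks equal RPKM. Of the 7 pseudogenes, 6 have intervals below it and RNA5SP506, at 0.845, has an interval that crosses it.

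Among the 13 members of the 7SL family, 12 passed the filter, of which 3 were higher (against 9.88% of all features), 8 lower (against 6.83%) and 1 within 2-fold. The 3 higher ones were listed through the IP library alone, and of the 8 lower ones RN7SL4P alone reached 1 CPM in both libraries, so the direction of the others was set by the listing limit. The family had 40 reads in the IP library and 1367 in the Input library, a share 11.6-fold lower in the IP library (8.45 to 16.3). One copy carried most of these reads, and without RN7SL4P the share was 7.40-fold lower (4.92 to 11.7). That remainder holds only members listed through 1 library alone, so it gives no check of direction. RN7SL4P had 16 reads and 16.8 RPKM in the IP library, against 842 reads and 299.9 RPKM in the Input library, 17.8-fold lower (10.9 to 31.3). It lies in an intron of ANKRD28 on the opposite strand. RN7SL674P, in an intron of GREB1 on the same strand, had 2 reads in the IP library and 324 in the Input library, a level 54.8-fold lower (15.1 to 454). RN7SL5P (chr9:9442060-9442380, plus strand), the closest 7SL copy by sequence, had no read in the IP library and 100 in the Input library, at least 11.3-fold lower with 3 reads as the bound. These 3 copies were far apart in level, from 299.9 RPKM down to 32.7 RPKM in the Input library. RN7SL767P had 2 reads in the IP library and 30 in the Input library (5.07-fold lower, 1.29 to 43.8), but with reads halved its ratio had an upper limit of 1.28, so the interval then includes no change. RN7SL396P had 2 reads in the IP library and 23 in the Input library (3.89-fold lower), with an interval of 0.961 to 34.0 that includes no change. The other 8 members of the family had 4 reads or fewer in the IP library and at most 12 in the Input library.

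The 7SK copies were the sparsest family. Of 11 members, 10 passed the filter, and 8 of these were lower (against 6.83% of all features), 2 within 2-fold and 0 higher (against 9.88%). None of the 11 reached 1 CPM in both libraries, 8 being listed through the Input library alone and 3 through the IP library alone, so the listing limit set the direction of each, and the sum below rests on such members alone. The family had 14 reads in the IP library and 336 in the Input library, a share 8.12-fold lower in the IP library (4.77 to 15.0). All 14 of the IP reads fell on 4 members, and the other 7 had none. RN7SKP79 had 0 reads in the IP library and 88 reads, or 27.5 RPKM, in the Input library, at least 7.90-fold lower. RN7SKP255 (chr14:89712511-89712823, plus strand) was the one copy with at least 20 reads in all that had any read in the IP library. It had 2 reads in the IP library and 84 in the Input library, 14.2-fold lower (3.81 to 119). RN7SKP203 had 0 reads in the IP library and 50 in the Input library (at least 4.42-fold lower). RN7SKP80 had 0 reads in the IP library and 38 in the Input library (at least 3.32-fold lower). RN7SKP71 had 0 reads in the IP library and 22 in the Input library (at least 1.85-fold lower). With reads halved its ratio had an upper limit of 1.18, which includes no change. These bounds are set by how few reads the copies had in the Input library.

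The 5S copies held most of the reads. All 21 passed the filter, and 20 were at least 2-fold lower (against 6.83% of all features), 1 within 2-fold and 0 higher (against 9.88%). Of the 21, 15 were listed through the Input library alone, and the other 6 had 76 reads in the IP library and 2652 in the Input library, a share 11.8-fold lower (9.40 to 15.0). The family had 90 reads in the IP library and 3678 in the Input library, a share 13.8-fold lower in the IP library (11.2 to 17.2). RNA5SP389, an intergenic copy, had 32 reads and 86.4 RPKM in the IP library, against 1688 reads and 1542 RPKM in the Input library, 17.8-fold lower (12.6 to 26.2). Without it the share of the family was 11.6-fold lower (8.94 to 15.3). RNA5SP370 (chr12:104125236-104125356, plus strand), in an intron of NFYB on the opposite strand, had 41.1 RPKM in the IP library and 437 RPKM in the Input library. These are 16 reads in the IP library and 503 in the Input library, 10.6-fold lower (6.49 to 18.8). RNA5SP149 (chr3:180161886-180161977, minus strand) had 12 reads in the IP library and 222 in the Input library, 6.26-fold lower (3.51 to 12.3). Of the 5 copies with most reads in this family, RNA5SP389, RNA5SP370 and RNA5SP149 reached 1 CPM in both libraries and were lower. The next pair was listed through the Input library alone, so the listing limit set its direction. RNA5SP429, in an intron of CDH1 on the same strand, had 2 reads in the IP library and 167 in the Input library, 28.2-fold lower (7.70 to 235). RNA5SP216 (chr6:125979812-125979934, minus strand) had 2 reads in the IP library and 474 in the Input library, 80.2-fold lower (22.1 to 664).

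RNA5SP216 lies within an exon of HINT3 on the opposite strand over all of its 123 bases. Whether the libraries kept strand is not stated in the protocols, so reads of this copy and of HINT3, which had 48 reads in the IP library and 643 in the Input library, cannot be told apart. RNA5SP387 overlaps the microRNA gene MIR7641-2 by 53 bases on the same strand, and both were credited with 2 reads in the IP library and 90 in the Input library. The 5S copies RNA5SP71, RNA5SP150, RNA5SP250 and RNA5SP506 are annotated again over the same bases under a clone name, and how such reads were divided was not tested. GENCODE v29 types these copies as rRNA and the other 5S members as rRNA pseudogenes, so they are called pseudogenes here by symbol alone. At the lower end of the 5S family by log2 ratio were RNA5SP250 and RNA5SP486. RNA5SP250 had 0 reads in the IP library and 78 in the Input library (at least 6.99-fold lower). RNA5SP486 had 0 reads in the IP library and 24 in the Input library (at least 2.04-fold lower). With reads halved, the ratio of RNA5SP486 had an upper limit of 1.06, which includes no change. Both have no IP read, so their place depends on the pseudocount, and with 5 RPKM the log2 ratio was -5.35 for RNA5SP216, -4.08 for RNA5SP389, -3.88 for RNA5SP250 and -2.82 for RNA5SP486. At the upper end among copies with at least 20 reads stood RNA5SP259, with 2 reads in the IP library and 18 in the Input library (3.04-fold lower, 0.729 to 27.1). RNA5SP77 had 2 reads in the IP library and 20 in the Input library (3.38-fold lower, 0.822 to 29.9). RNA5SP145, in an intron of MED12L, had 8 reads in the IP library and 113 in the Input library (4.78-fold lower, 2.34 to 11.3). Of these 3, the interval left out no change for RNA5SP145 alone.

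**Figure D3:**
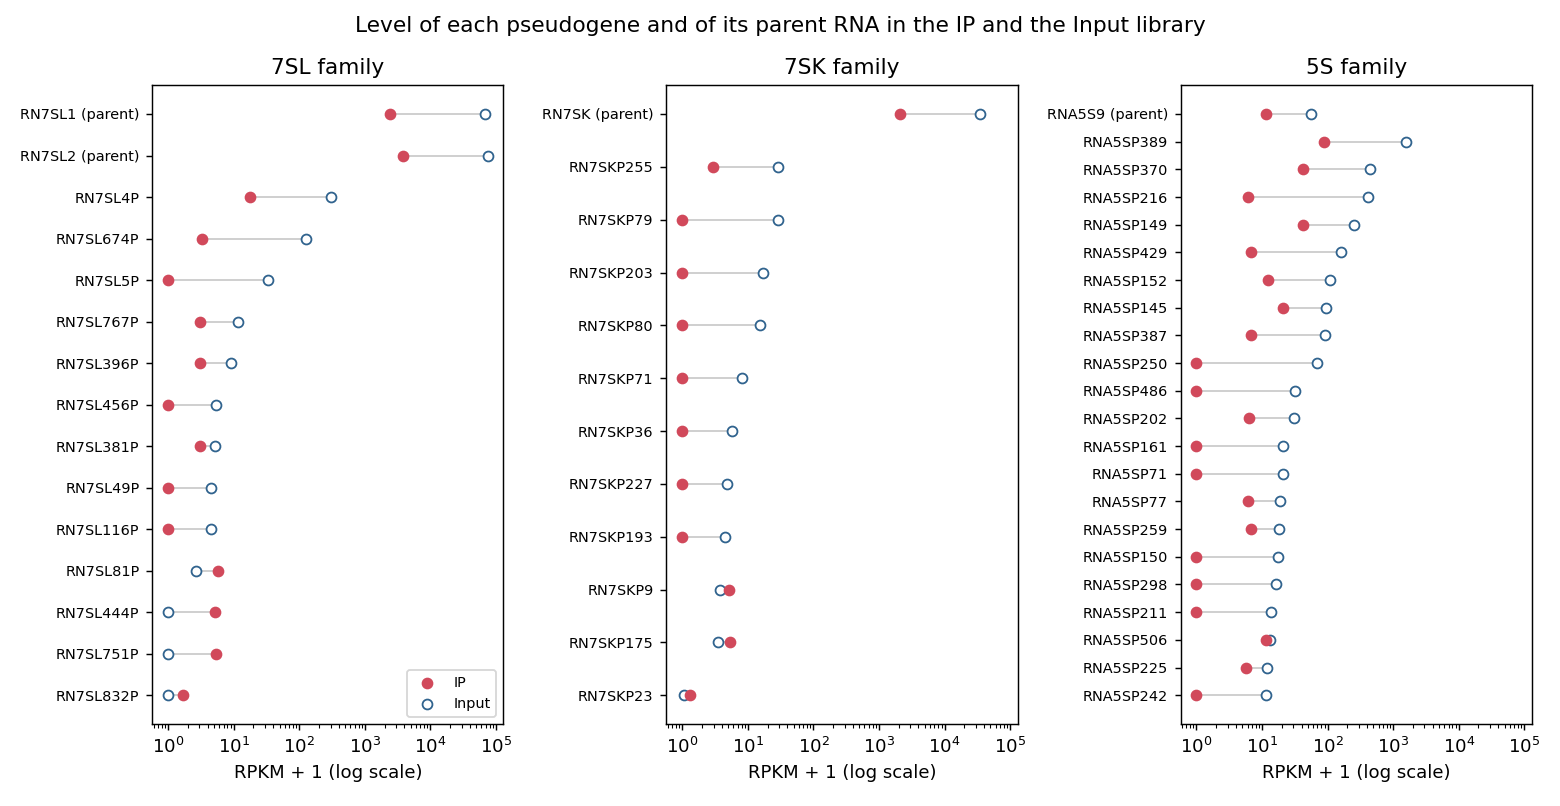
RPKM plus 1 on a log scale for every pseudogene and for the parent RNA of its family, with the IP library as filled red points and the Input library as open blue points joined by a line. The parents RN7SL1, RN7SL2 and RN7SK lie above every copy of their families in both libraries, while RNA5S9 lies below several 5S copies; the IP points lie left of the Input points except in the 7 members listed through the IP library alone.

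All 7 members that reached 1 CPM in the IP library alone had exactly 4 reads there. RN7SL444P, RN7SL751P and RN7SL832P had 0 reads in the Input library, and the lower limit of their ratio was 1.95, or 0.555 with reads halved in case a fragment was counted as 2 reads. Having passed through the IP library alone, they could not have been lower. RN7SL81P had 4 reads in the IP library and 4 in the Input library, a ratio of 2.96 (0.551 to 15.9). RN7SL444P, RN7SL751P and RN7SL81P are the 3 copies counted as at least 2-fold higher. RN7SKP175 had 4 reads in the IP library and 7 in the Input library, a ratio of 1.69 (0.363 to 6.64), and RN7SKP9 had 4 in the IP library and 8 in the Input library, a ratio of 1.48 (0.326 to 5.52). These intervals include 1, and RN7SKP23, with 4 reads in the IP library and 3 in the Input library, did not pass the filter.

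Of these 7, 4 lie in an intron of a measured gene on the same strand. RN7SL444P lies in PI4KB, for a phosphatidylinositol kinase, which had 50 reads in the IP library and 67 in the Input library, a ratio of 2.21, with an interval up to 3.23 that lies above 1. RN7SL751P lies in ROBO1, for a guidance receptor, which had 95 reads in the IP library and 235 in the Input library, a ratio of 1.20 (0.931 to 1.52). RN7SL81P lies in CALU, for the calcium-binding protein calumenin, with a ratio of 0.969 (0.918 to 1.02), and RN7SKP9 in UBAC2 with a ratio of 1.69 (0.758 to 3.60). The host ratios thus ran from 0.969 to 2.21, and whether reads of unspliced host RNA were counted in these copies was not tested. Over all 45 members, 14 lay in a same-strand intron of a measured gene, 5 in one on the opposite strand, 11 outside any annotated gene and 15 over an exon of another gene or in a gene not analysed here.

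The names were checked against the sequences, and 2 members stood apart. RN7SKP23 is annotated as a 4301-base gene on chromosome 16 (23412380 to 23416680) whose best match to 7SK RNA spans 28 bases, with no identical run over 11 bases, so its sequence goes against its name. It also overlaps an exon of COG7 by 117 bases, and without it the share of the 7SK family in the IP library was 0.0888 of that in the Input library, against 0.123 with it. RN7SL832P is a 1756-base noncoding RNA gene on chromosome 2 (10690344 to 10692099) with a 7SL-like stretch of 290 bases inside it. The other 43 members were 83 to 336 bases long and each matched its parent. Identity in the aligned part was 81.6% to 99.6% for the 12 short copies of 7SL, 88.4% to 98.3% for the 10 of 7SK and 86.4% to 100% for the 21 of 5S.

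Truncation was common and fell at like positions within a family. Among the copies that span less than 80% of the parent and begin at its start, 6 of 7SL ended between bases 196 and 235, and 6 of 7SK between bases 238 and 244. In the 5S family, 13 such copies ended between bases 55 and 91, with a median of 90. RNA5SP389 and RNA5SP370, the copies with most reads in their family, both match the first 90 bases of 5S rRNA exactly, and RNA5SP145 the first 86. Copies past 1 CPM in both libraries had a median longest run identical to the parent of 86 bases (25 to 192, n = 7). The median was 39 bases (20 to 60, n = 5) in those listed through the IP library alone and 50 bases (17 to 209, n = 31) in those listed through the Input library alone. These groups hold different families, whose parents differ in length, so the medians do not compare like copies.

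Longer exact runs went with higher Input levels in the 7SL family, with a Spearman rho of 0.872 and a Pearson r of 0.774 between run length and log2(Input RPKM + 1) over 12 copies. The corresponding values were 0.358 and 0.465 over 10 copies of 7SK, and 0.359 and 0.468 over 21 copies of 5S. Between run length and the log2 ratio of IP over Input, rho was -0.708 for 7SL, -0.358 for 7SK and 0.153 for 5S. These describe copies that share 1 parent, the same libraries and the same listing limit, so they are not independent points. The log2 ratio itself contains the Input level, so its rho is not separate from that of the Input level. Of the 12 copies of 7SL, all but RN7SL4P were listed through 1 library alone, which limited their ratio. RN7SL5P shows the spread, with the longest run of 209 bases at 32.7 RPKM in the Input library, against 192 bases at 299.9 RPKM for RN7SL4P.

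**Figure D4:**
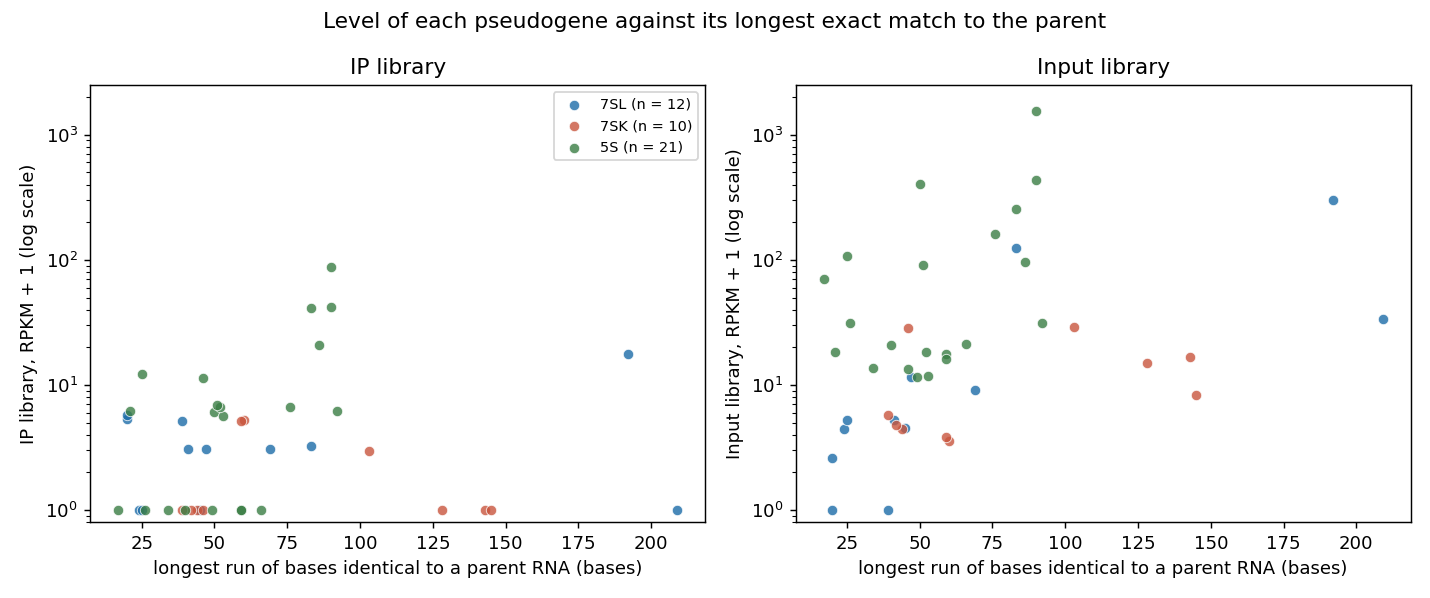
RPKM plus 1 on a log scale in the IP library (left) and the Input library (right) against the longest run of bases identical to the parent RNA, for the 43 short pseudogenes, coloured by family. In the Input library the 7SL copies with runs over 75 bases lie above those with shorter runs, and in the IP library no copy passes 100 RPKM.

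CSTF2 binds RNA rich in G and U, so the copies were searched for TGTGT on their annotated strand. It was present in 3 of the 43 short members (6.98%), against 19.9% of the 15009 annotated transcripts of 83 to 336 bases. These were RN7SKP79, RN7SKP9 and RNA5SP211, whose IP reads numbered 0, 4 and 0. The hexamer AATAAA, the most frequent poly(A) signal, was present in 1 member, RN7SKP9, and in 11.1% of those transcripts. A run of TTTT, at which RNA polymerase III stops, was present in 7 members (16.3%), against 48.4% of those transcripts. A match says only that these letters occur in the copy.

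The parent RNAs were also lower in the IP library. RN7SL1 had 2331 reads and 2413 RPKM in the IP library, against 194362 reads and 68069 RPKM in the Input library, 28.2-fold lower (27.1 to 29.4). RN7SL2, which differs from RN7SL1 at 4 bases, had 3660 reads in the IP library and 211832 in the Input library, 19.6-fold lower (19.0 to 20.2). The interval of RN7SL4P (10.9 to 31.3) spans the values of both parents. RN7SK had 2214 reads in the IP library and 108773 in the Input library, 16.6-fold lower (15.9 to 17.3). RNA5S9 was the one measured gene of the 17 annotated 5S genes, of which the other 16 share 1 sequence. RNA5S9 had 4 reads and 10.4 RPKM in the IP library, against 62 reads and 54.7 RPKM in the Input library, 5.24-fold lower (1.95 to 19.9). In the Input library 9 of the 21 5S pseudogenes had more reads per length than RNA5S9, up to the 1542 RPKM of RNA5SP389. RNY1 had 0 reads in the IP library and 393 in the Input library, at least 35.9-fold lower.

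Some copies of these RNAs are pooled in the deposited table under a family name that covers many loci. Metazoa_SRP, the name of 7SL-like loci, had 211 reads in the IP library and 11676 in the Input library, 18.7-fold lower (16.3 to 21.6). The name 5S_rRNA had 2 reads in the IP library and 22 in the Input library (3.72-fold lower, 0.915 to 32.7). Y_RNA had 25 reads in the IP library and 112 in the Input library, a ratio of 0.660 with an interval of 0.410 to 1.02. The interval includes 1 for 5S_rRNA and Y_RNA and lies below 1 for Metazoa_SRP. GENCODE v29 holds 677 symbols of the 7SL form, 293 of the 7SK form and 508 of the 5S form, so the members analysed are 1.92%, 3.75% and 4.13% of them. They lie on 17 chromosomes.

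Copies of U6 snRNA, another RNA polymerase III product, were measured in the same table. Of 18 RNU6 pseudogenes, all past the filter, 15 were at least 2-fold lower (against 6.83% of all features) and 0 higher (against 9.88%). They had 14 reads in the IP library and 790 in the Input library, but 15 of the 18 were listed through the Input library alone, so this difference rests mostly on copies whose direction the listing limit set. The 2 RNU6 copies past 1 CPM in both libraries had 10 reads in the IP library and 44 in the Input library, a ratio of 0.672 (0.301 to 1.36), and neither was past 2-fold.

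The mRNAs of the machinery that makes and binds these RNAs form the list described last. It holds subunits of RNA polymerase III, its transcription factors and the proteins that bind 7SL, 7SK, 5S and Y RNAs. Of its 41 symbols 40 were measured and 34 passed the filter, of which 3 were higher (8.82%, against 9.88% of all features) and 3 lower (8.82%, against 6.83%), shares near the background. The median log2 ratio was 0.11, against 0.17 for all features. By the log2 ratio with a pseudocount of 1 RPKM, the highest was SNAPC4, of the complex that binds the promoters of 7SK and U6, with 5.73 RPKM in the IP library and 1.58 RPKM in the Input library (3.62-fold higher, 2.64 to 4.96). GTF3C1, the largest subunit of TFIIIC, was 2.80-fold higher (2.37 to 3.32). By the same log2 ratio the lowest was GTF3A, for TFIIIA, the factor that binds the 5S gene, with 4.55 RPKM in the IP library and 11.1 RPKM in the Input library, a ratio of 0.410 (0.292 to 0.564). SRP9, for a protein that binds 7SL RNA, had a ratio of 0.452 (0.380 to 0.533). BRF2 was the remaining higher gene and SNAPC5 the remaining lower one, both named here after their values were seen. Without a pseudocount BRF2 had the higher ratio, 4.01 (1.91 to 8.65), than SNAPC4, and SNAPC5 the lower one, 0.399 (0.249 to 0.612), than GTF3A.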

How the data were processed

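RNA was measured by RIP-seq in 2 libraries of HUH7 cells, 1 of RNA recovered with CSTF2 and 1 of input RNA. Per the file headers, the table the authors deposited holds RPKM for each library. It also holds the authors' log2 fold change (IP over Input), which served here to recover read numbers and nothing else. FastQC 0.12.0 and hg38 are named in the submitters' processing notes. Neither the aligner nor the counting program, the annotation or the strandedness is stated there. Whole reads and gene lengths were solved from the RPKM values and the fold change, taken as the log2 ratio of reads plus a prior count averaging 0.125 and scaled to library size. A tolerance of 0.01 reads was met by 14913 of 14914 features, and the method was tested on simulated data. The lengths of all 45 members equalled those of GENCODE v29, the source of coordinates and sequences. Over all features whose symbol matched 1 gene there, 11451 of 12660 had an equal length. RN7SL1 (300 bases, against 299) and RN7SK (331, against 328) did not, so the authors' lengths were not those of v29 throughout.

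Reads came to 3220045 in the IP library and 9517885 in the Input library, 2.96 times as many. The pseudocount was 1 RPKM, the filter a mean of at least 1 RPKM and the threshold 2-fold. The pseudocount draws the log2 ratio of low features towards 0 where both libraries have reads. Where the IP library has 0 reads, the log2 ratio can lie past the bound set by 3 reads. The median log2 ratio of the 43 members past the filter was -3.05, and -1.44 with each 0 set to 3 reads. With 1 library per group there is no SD or p-value. Local alignments (Biopython 1.88) scored 1 for a match, -1 for a mismatch, -3 to open a gap and -1 to extend it. Intervals used scipy 1.17.1. Of read numbers above 0 and under 50 over all features, 72.5% in the IP library and 70.9% in the Input library were even, and all 26 members with IP reads had an even number. A fragment may thus have been counted as 2 reads, which was not tested. Named were the parent RNAs, in each family the 5 members with most reads and the 3 highest and 3 lowest by log2 ratio among those with at least 20 reads, and the 2 highest and 2 lowest of the list of RNA polymerase III factors and binding proteins. Other names check a locus or were chosen after their values were seen. The members, lists, motifs and marker genes were chosen with earlier results of these data known. Sequences of the 7SL and 5S copies are not reported here.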

Additional observations from a re-analysis of the deposited data

How the results depend on the processing

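No paired analysis was possible because each group has 1 library. The 3 members at least 2-fold higher, all of the 7SL family, became 0 with a pseudocount of 5 RPKM, a filter of 5 RPKM, at least 20 reads in total or 1 CPM in both libraries. The 36 members at least 2-fold lower became 6 with 1 CPM in both libraries. With a pseudocount of 5 RPKM, a filter of 5 RPKM, at least 20 reads and 1 CPM in both libraries, in that order, the 8 lower members of the 7SL family became 4, 5, 5 and 1, and the 8 of the 7SK family 5, 4, 5 and 0. The 20 lower members of the 5S family became 5 with 1 CPM in both libraries. The filter and the read limits test fewer members by construction. The summed ratio of the 7SL family was 0.135 without RN7SL4P, against 0.0865 with it, and the members left were each listed through 1 library alone. In an alternative chosen after the data were seen, reads were halved. The members whose interval lay below 1 were then 16, against 26 on reads as counted, and those above 1 were 0, against 3. Most of the 26 were listed through the Input library alone and all 3 through the IP library alone. The listing limit thus set the direction of these, and the same counts over all features were not taken. The other 70 values of counts and sums stayed within 1.5 times the reported count, or within the counting interval of the reported sum. Of 40 values of the log2 ratios of 20 named members with pseudocounts of 0.1 and 5 RPKM, 3 moved (RN7SL5P, RN7SKP79 and RN7SKP203 with 5 RPKM). A pseudocount cannot change the sign of a log2 ratio, so the sign was not tested. Depth limits the copies with few reads most, since 4 reads in the IP library already reach 1 CPM.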
